A study of Mus musculus with 16 samples.

Results

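Immunoglobulin gene segments, the pieces from which antibody genes are assembled, were described across RNA sequencing libraries of mouse T cell acute lymphoblastic leukaemia (T-ALL), a cancer of T cell precursors. A member was every counted Ensembl gene that GENCODE release M21 lists as an immunoglobulin V, D, J or C gene. This gave 240 of the 41214 genes counted. They comprised 204 variable (V), 18 diversity (D), 9 joining (J) and 9 constant (C) genes. Of these, 133 lie at the heavy chain locus on chromosome 12 (chr12:113254830-116000461, GRCm38), 103 at the kappa light chain locus on chromosome 6 (chr6:67555497-70726966) and 4 at the lambda light chain locus on chromosome 16 (chr16:19085017-19260859). Ighd, Iglc1, Iglc3 and Iglc4 were not analysed here.

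The 16 libraries came from 16 C57Bl6 mice in 8 groups of 2. All carried T-ALL, and they differed in ICN induction (the intracellular domain of Notch, an oncogenic driver of T-ALL), in Miz1 (a zinc finger transcription factor, intact or labelled deltaPOZ) and in p53 (ko or wt). The groups were ICN deltaPOZ Lck p53 ko, ICN deltaPOZ Vav p53 ko, ICN Miz1 wt p53 ko, ICN deltaPOZ Lck p53 wt, ICN deltaPOZ Vav p53 wt, ICN Miz1 wt p53 wt, no ICN deltaPOZ Vav p53 ko and no ICN Miz1 wt p53 ko. Lck and Vav stand only in the titles of deltaPOZ mice, and the labels do not say what they drive, nor the organ, age or sex. Mice are numbered 1 and 2 within a group as a name only.

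Gene counts per library ran between 36463524 and 68523196 (median 50171983). Trp53 reached 7.32 to 30.6 CPM (library-size-scaled gene counts, adjusted by the trimmed mean of M-values, TMM) in the 10 p53 ko libraries, against 70.2 to 113.5 CPM in the 6 p53 wt libraries. Zbtb17, which encodes Miz1, reached 38.0 to 87.5 CPM in the 10 deltaPOZ libraries, against 42.9 to 137.8 CPM in the 6 Miz1 wt libraries. A count over the whole gene does not show whether the POZ part was removed. Defining T cell genes were present throughout: 10 T cell markers summed to 2499 to 4478 CPM with ICN and 3001 to 5866 CPM without it.

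Antibody genes are built in B cells by V(D)J recombination. A heavy chain V segment is joined to a D and a J segment, and a light chain V segment to a J segment, and splicing then links the assembled exon to a constant gene. The first heavy constant gene used is Ighm (IgM), and class switching replaces it with an IgG, IgE or IgA gene. Each B cell carries its own V choice, so many V segments in similar shares are seen in a polyclonal population and 1 prominent V segment in an expanded clone. Ighm transcripts that carry no V segment are known from precursor lymphocytes, T lineage cells included.

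The last 290 coding bases of 4 V segments are shown first, because the results on prominent V segments turn on them. These 4 reached the largest shares of a library's V counts. They were read from GENCODE M21 transcripts (GRCm38), 5' to 3' on the coding strand. Capitals mark the stretch that starts with the last in-frame cysteine codon and runs to the 3' end, where joining to D or J takes place. They lie in the second exon of each gene, for Ighv1-82 at chr12:115952538-115952827 (minus strand), for Ighv14-4 at chr12:114176438-114176727 (minus strand), for Ighv14-2 at chr12:113994469-113994758 (minus strand) and for Igkv3-2 at chr6:70698778-70699067 (plus strand).
Ighv1-82: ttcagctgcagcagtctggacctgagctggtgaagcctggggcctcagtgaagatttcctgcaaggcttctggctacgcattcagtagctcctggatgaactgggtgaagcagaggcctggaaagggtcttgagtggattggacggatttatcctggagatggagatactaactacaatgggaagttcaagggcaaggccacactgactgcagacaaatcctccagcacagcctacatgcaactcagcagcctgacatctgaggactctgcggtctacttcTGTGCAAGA
Ighv14-4: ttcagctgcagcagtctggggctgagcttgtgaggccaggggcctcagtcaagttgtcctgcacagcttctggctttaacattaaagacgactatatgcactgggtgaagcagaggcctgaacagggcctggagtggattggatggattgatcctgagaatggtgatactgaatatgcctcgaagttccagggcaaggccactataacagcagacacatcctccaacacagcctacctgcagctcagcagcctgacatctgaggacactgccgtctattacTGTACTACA
Ighv14-2: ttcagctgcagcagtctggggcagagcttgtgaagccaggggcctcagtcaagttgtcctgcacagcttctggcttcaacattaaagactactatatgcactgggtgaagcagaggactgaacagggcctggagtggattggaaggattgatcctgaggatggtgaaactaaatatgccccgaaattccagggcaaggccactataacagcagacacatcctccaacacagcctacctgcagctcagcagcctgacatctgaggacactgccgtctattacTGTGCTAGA
Igkv3-2: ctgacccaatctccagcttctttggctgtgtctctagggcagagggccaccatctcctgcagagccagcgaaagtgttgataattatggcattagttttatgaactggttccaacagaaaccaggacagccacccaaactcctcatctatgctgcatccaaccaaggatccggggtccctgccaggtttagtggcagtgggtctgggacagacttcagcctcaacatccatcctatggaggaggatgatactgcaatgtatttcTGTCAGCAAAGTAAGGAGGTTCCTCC
The closest other member to Ighv1-82 was Ighv1-80, at 95.44% identity over the coding sequence. Ighv14-4 and Ighv14-2 were 95.73% identical to each other, and the closest member to both was Ighv14-1, at 97.44% for Ighv14-4 and 97.15% for Ighv14-2. Igkv3-2 stood further apart, with Igkv3-1 closest at 92.76%. Reads shared between near-identical copies are not unique and drop out of such counts, so segment counts are uncertain to that extent. Over the 204 V segments the median identity to the closest member was 94.6%, and 16 segments at 98% or more held 3.82% of all V counts. That share was taken from counts left after shared reads had dropped out, so it does not measure how many were lost.

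Constant genes carried most of the signal. Over the 16 libraries they collected 621096 counts and V segments 134723, whereas J segments had 36 and D segments 0. Of the constant counts, 548683 came from the 7 heavy chain genes, 62333 from Igkc (kappa) and 10080 from Iglc2 (lambda). V counts were nearly even between the loci of the heavy chain (63569) and kappa chain (58241), with 12913 for lambda. A count was found for 96 of 104 heavy V, 95 of 97 kappa V and 3 of 3 lambda V segments.

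The D segments are 10 to 29 bases long and the 5 kappa J segments 38 to 43, and all of them had 0 counts. The only J segments with counts were Ighj1 (22 counts in 8 libraries) and Ighj4 (14 counts in 6 libraries). They are shown with Ighj2, which had 0 counts, since all 4 heavy J segments hold the letters TGGGGN (N, any base; searched on the coding strand only, none overlapping another), written here in capitals. These letters encode the tryptophan and glycine that open the conserved end of the joined exon. Ighj1 lies at chr12:113429781-113429833, Ighj2 at chr12:113429468-113429515 and Ighj4 at chr12:113428514-113428567, all on the minus strand of GRCm38.
Ighj1: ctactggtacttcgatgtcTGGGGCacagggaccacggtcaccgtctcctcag
Ighj2: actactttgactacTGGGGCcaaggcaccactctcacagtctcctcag
Ighj4: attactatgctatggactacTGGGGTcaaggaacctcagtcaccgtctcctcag
The use of D and J segments could not be described from these counts.

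Immunoglobulin genes took between 0.00623% and 0.273% of a library's gene counts. The share was 0.0858% and 0.198% in ICN deltaPOZ Lck p53 ko mice, 0.0911% and 0.273% in ICN deltaPOZ Vav p53 ko mice, and 0.0193% and 0.0235% in ICN Miz1 wt p53 ko mice. With p53 wt it was 0.148% and 0.0893% in ICN deltaPOZ Lck mice, 0.200% and 0.0719% in ICN deltaPOZ Vav mice, and 0.183% and 0.0469% in ICN Miz1 wt mice. Without ICN it was 0.0224% and 0.0397% in deltaPOZ Vav p53 ko mice and 0.00623% and 0.0151% in Miz1 wt p53 ko mice. The 10 ICN libraries other than the ICN Miz1 wt p53 ko pair, 0.0469% or more, lay above all 6 others, the highest of which was 0.0397%. In bulk RNA, fewer cells of a type and less RNA per cell cannot be told apart.

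**Figure D1:**
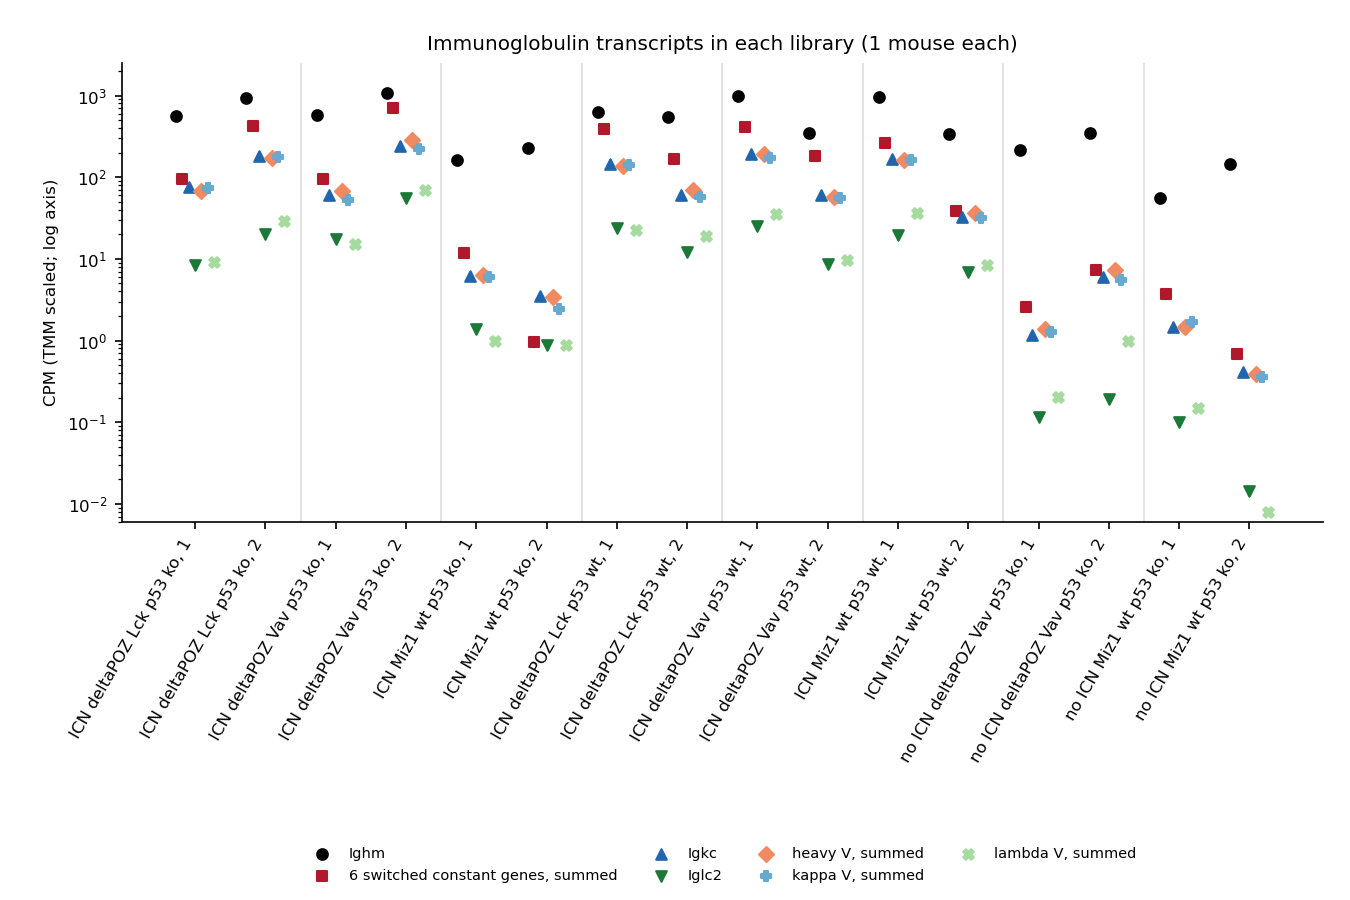
Immunoglobulin level in each of the 16 libraries, in TMM-scaled CPM on a log axis. The series are Ighm, the switched heavy constant genes (IgG, IgE and IgA) summed, Igkc, Iglc2, and heavy, kappa and lambda V segments, each summed. Each point is 1 mouse, and the only value of 0 (lambda V in no ICN Miz1 wt p53 ko mouse 2) is drawn at the lower edge. Ighm varies least between libraries.

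Ighm, the IgM constant gene, was the highest heavy constant gene in all 16 libraries per length. With p53 ko it stood at 569 and 927 CPM in ICN deltaPOZ Lck mice, 572 and 1080 CPM in ICN deltaPOZ Vav mice and 164 and 225 CPM in ICN Miz1 wt mice. With p53 wt it stood at 619.7 and 539.6 CPM in ICN deltaPOZ Lck mice, 987 and 344 CPM in ICN deltaPOZ Vav mice and 949.7 and 338 CPM in ICN Miz1 wt mice. Without ICN it was 214 and 351 CPM in deltaPOZ Vav mice and 55.9 and 146 CPM in Miz1 wt mice. Ighm was thus counted in every library, by no fewer than 2233 counts.

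The kappa constant gene Igkc spanned a wider range. With p53 ko it stood at 76.7 and 183 CPM in ICN deltaPOZ Lck mice, 60.1 and 243 CPM in ICN deltaPOZ Vav mice and 6.20 and 3.55 CPM in ICN Miz1 wt mice. With p53 wt it stood at 146 and 59.9 CPM in ICN deltaPOZ Lck mice, 192 and 59.7 CPM in ICN deltaPOZ Vav mice and 168 and 32.7 CPM in ICN Miz1 wt mice. Without ICN it was 1.17 and 5.99 CPM in deltaPOZ Vav mice and 1.45 and 0.416 CPM in Miz1 wt mice. The 10 ICN libraries other than the ICN Miz1 wt p53 ko pair all stood at 32.7 CPM or more, and the other 6 libraries at 6.20 CPM or less.

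Ighm went out of step with the V segments where immunoglobulin was low. In the 10 ICN libraries other than the ICN Miz1 wt p53 ko pair there were 3.81 to 9.31 Ighm counts for each heavy V count (median 5.93). The ratio was 26.03 and 65.8 in ICN Miz1 wt p53 ko mice, 156 and 48.4 in no ICN deltaPOZ Vav p53 ko mice, and 37.8 and 377 in no ICN Miz1 wt p53 ko mice. No ratio of these 6 libraries fell within the range of the other 10. The largest ratio came from 10186 Ighm counts beside 27 heavy V counts. These are ratios of counts, not per length, and no test was run on them.

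The kappa chain kept step with its V segments instead, and the switched heavy chains stayed closer to theirs than Ighm did. Igkc counts per kappa V count lay between 0.853 and 1.48 in all 16 libraries (median 1.05), though kappa V counts ran between 25 and 10638. Counts of the 6 switched constant genes (IgG, IgE and IgA genes) per heavy V count lay between 0.285 and 3.10, with the lowest in mouse 2 of ICN Miz1 wt p53 ko. The ratio of Ighm spanned 3.81 to 377 over the same libraries.

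**Figure D2:**
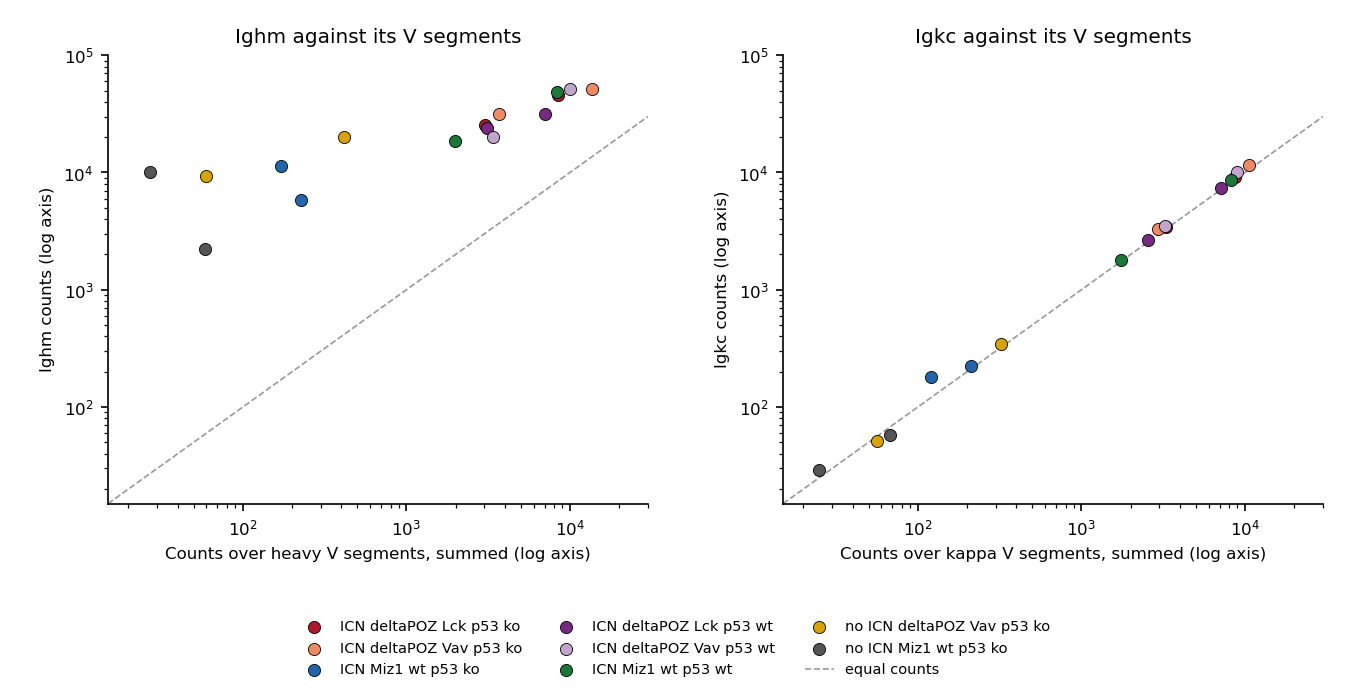
Counts of Ighm against summed heavy V counts, and of Igkc against summed kappa V counts, in each of the 16 libraries on log axes, where the dashed line marks equal counts. Igkc stays near the line over the whole range, whereas Ighm lies above it, with ratios between 37.8 and 377 in the 4 no ICN libraries.

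Values of B cell marker genes moved with these levels. All 16 markers listed were counted. Their summed level was 68.6 to 325 CPM with ICN, against 16.1 to 36.6 CPM without it, and among ICN libraries the lowest value belonged to ICN Miz1 wt p53 ko. Ms4a1, a B cell surface marker gene, was at 5.99 to 36.5 CPM in the 10 ICN libraries other than the ICN Miz1 wt p53 ko pair, at 2.43 CPM in mouse 1 and 0.0397 CPM in mouse 2 of ICN Miz1 wt p53 ko, and at 0.0717 to 0.325 CPM without ICN. Jchain, which joins IgM and IgA chains, was at 29.01 to 147 CPM, at 4.36 and 1.77 CPM, and at 0.201 to 2.33 CPM in the same 3 sets of libraries. The part of the number of B cells in the immunoglobulin levels was not tested.

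The isotype of the heavy constant genes was then read from levels per kilobase of exon, because Ighg2c has 1326 exon bases in the annotation, whereas Ighg1, Ighg2b, Ighg3 and Igha have 2512 to 2678. Switched isotypes made up 13.4% and 29.9% of the heavy constant level in ICN deltaPOZ Lck p53 ko mice, 12.9% and 42.1% in ICN deltaPOZ Vav p53 ko mice, and 6.23% and 0.358% in ICN Miz1 wt p53 ko mice. With p53 wt they made up 37.5% and 22.9% in ICN deltaPOZ Lck mice, 28.6% and 35.0% in ICN deltaPOZ Vav mice and 21.9% and 10.2% in ICN Miz1 wt mice. Without ICN they made up 1.06% and 1.72% in deltaPOZ Vav p53 ko mice and 7.03% and 0.513% in Miz1 wt p53 ko mice. The 10 ICN libraries other than the ICN Miz1 wt p53 ko pair started at 10.2%, above the highest of the other 6, 7.03%. Shares depend on how much Ighm a library holds as well as on the switched genes, and Ighm was the gene out of step with V counts.

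Ighg2c, the IgG2c gene that C57BL/6 mice carry, was the switched gene with the highest level per length in most ICN libraries. It reached 26.5 and 125 CPM in ICN deltaPOZ Lck p53 ko mice, 22.6 and 394 CPM in ICN deltaPOZ Vav p53 ko mice, and 0.503 CPM (mouse 1) and 0.159 CPM (mouse 2) in the ICN Miz1 wt p53 ko pair. With p53 wt it reached 130.1 and 55.7 CPM in ICN deltaPOZ Lck mice, 143 and 81.6 CPM in ICN deltaPOZ Vav mice and 111 and 15.97 CPM in ICN Miz1 wt mice. Without ICN it was 0.641 and 1.27 CPM in deltaPOZ Vav mice and 2.28 and 0.373 CPM in Miz1 wt mice. In the 10 ICN libraries other than the ICN Miz1 wt p53 ko pair, Ighg2c made up 37.9% to 71.4% of the switched level per length (median 50.6%), with the most in mouse 2 of ICN deltaPOZ Vav p53 ko. By counts with no scaling for length it made up 23.6% to 56.0% of switched counts (median 33.9%) and had the most in 7 of the 10. Ighg2b had more in mouse 1 of ICN deltaPOZ Lck p53 ko (36.9% against 27.8% for Ighg2c) and in mouse 1 of ICN deltaPOZ Vav p53 ko (38.8% against 23.6%), and Ighg1 had more in mouse 2 of ICN deltaPOZ Lck p53 ko (34.6% against 29.6%).

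The other switched genes followed at lower shares in those 10 libraries. Ighg2b made up 12.6% to 30.9% of the switched level per length (median 21.1%), Ighg1 2.35% to 27.1% (median 9.02%), Igha 1.82% to 23.1% (median 7.69%) and Ighg3 1.27% to 4.71% (median 2.33%). Igha, the IgA gene typical of mucosal plasma cells, peaked at 110 CPM in mouse 1 of ICN deltaPOZ Vav p53 wt. The order among Ighg1, Igha and Ighg2b changed between mice, whereas Ighg3 was below Ighg2b and Ighg2c in all of these.

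Ighe, the IgE gene, was low in every library, and 1 mouse stood out in the share it made up, though not in its level. Mouse 1 of ICN Miz1 wt p53 ko had 156 Ighe counts, which was 36.7% of its 425 switched counts (exact 95% interval 32.1% to 41.5%) and 47.5% of its switched level per length. Mouse 2 of that group had 0, which allows up to 3 counts of its 49. In the 10 remaining ICN libraries Ighe was 0.0564% to 2.68% of the switched level per length. As a level it was 4.36 CPM in mouse 1 of ICN Miz1 wt p53 ko, below the 5.82 CPM (279 counts) of mouse 2 of ICN deltaPOZ Vav p53 ko and near the 3.82 CPM (189 counts) of mouse 2 of ICN deltaPOZ Lck p53 ko, and the other 8 of those 10 had 0.0183 to 1.98 CPM. Intervals here and below cover counting error only, since reads were not reduced to molecules. Both no ICN Miz1 wt p53 ko libraries held 0 counts of Ighe, Ighg1 and Ighg3.

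**Figure D3:**
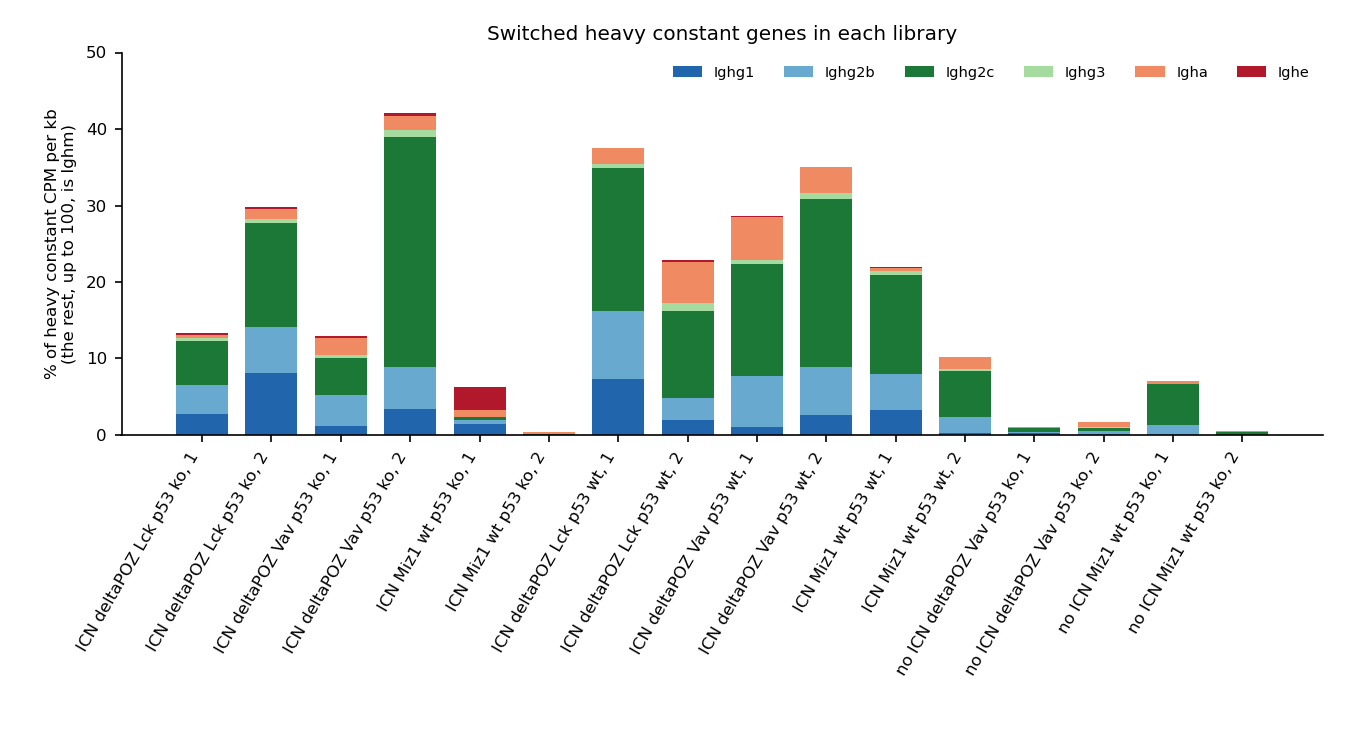
Share of the heavy constant level, in CPM per kilobase of exon, taken by each switched constant gene in each of the 16 libraries, as stacked bars that start at 0. The remainder of each library up to the full level is Ighm, and Ighg2c is the largest switched part in the ICN libraries other than the ICN Miz1 wt p53 ko pair.

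Kappa exceeded lambda in all 16 libraries, as is typical of mice, in which lambda is a minor light chain. By constant genes per length, kappa made up 79.7% to 91.4% of Igkc plus Iglc2 in the 12 ICN libraries (median 86.4%), against 92.1% to 97.3% in the 4 no ICN libraries. The lambda side rests on Iglc2 alone, since Iglc1, Iglc3 and Iglc4 were not analysed. The kappa share by constant genes may therefore be too high. Iglc2 had 5 and 11 counts in no ICN deltaPOZ Vav and 4 and 1 counts in no ICN Miz1 wt libraries. By counts, the exact 95% intervals of the kappa share there started at 80.4%, 94.5%, 84.3% and 82.8%, so that 3 of the 4 reached into the range of the ICN libraries, 77.3% to 90.2%. By V counts, kappa made up 73.3% to 88.9% with ICN (median 82.2%) and 84.9% to 100% without it. The ranges by V counts overlapped, and in no ICN libraries they rested on 25 to 321 kappa V counts.

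The lambda share by constant genes was largest in mouse 1 of ICN deltaPOZ Vav p53 ko, at 79.7% kappa. By V counts that mouse was at 77.7% kappa. Lower values by V counts included 73.3% in mouse 2 of ICN Miz1 wt p53 ko and 74.9% in mouse 2 of ICN deltaPOZ Lck p53 wt. Iglc2 itself stood at 8.36 and 20.4 CPM in ICN deltaPOZ Lck p53 ko mice, 17.6 and 55.7 CPM in ICN deltaPOZ Vav p53 ko mice, and 1.37 CPM (mouse 1) and 0.873 CPM (mouse 2) in the ICN Miz1 wt p53 ko pair. With p53 wt it stood at 23.5 and 12.01 CPM in ICN deltaPOZ Lck mice, 25.4 and 8.75 CPM in ICN deltaPOZ Vav mice and 19.3 and 6.89 CPM in ICN Miz1 wt mice. Without ICN it was 0.114 and 0.191 CPM in deltaPOZ Vav mice and 0.100 and 0.0143 CPM in Miz1 wt mice. No library without ICN reached the lowest ICN library. Among lambda V segments, Iglv1 led with 9182 counts, then Iglv2 with 2688 and Iglv3 with 1043, and Iglv1 made up 59.1% to 80.1% of lambda V counts with ICN.

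V segment use was broad in the libraries with enough V counts to tell. Diversity was measured as the effective number of V segments, the unbiased inverse Simpson index, which equals the number of segments when all are used evenly. At least 200 V counts were required, which 12 libraries met for each chain: the 11 ICN libraries other than mouse 2 of ICN Miz1 wt p53 ko, and mouse 2 of no ICN deltaPOZ Vav p53 ko. The effective number of heavy V segments there had a median of 34.1 and lay between 14.4 and 49.4, and that of kappa V segments had a median of 31.7 and lay between 15.1 and 38.8. In the 10 ICN libraries with over 1000 V counts per chain, 81 to 90 of the 104 heavy V and 80 to 90 of the 97 kappa V segments had a count. A single clone gives an effective number near 1, and the lowest value of either chain in these 12 libraries was 14.4.

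Depth sets part of how many V segments are seen. Thinned to 200 counts, these libraries held 48.6 to 62.5 heavy V segments (median 56.3) and 44.7 to 56.2 kappa V segments (median 54.4). Mouse 1 of ICN Miz1 wt p53 ko, with 226 heavy and 213 kappa V counts, had effective numbers of 49.4 and 34.1, at or above the median of the 12. The other 4 libraries, with 25 to 172 V counts per chain, could not be ranked at this depth.

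Single V segments nevertheless reached large shares in single mice. Ighv1-82 took 3168 of 13587 heavy V counts in mouse 2 of ICN deltaPOZ Vav p53 ko, which was 23.3% (exact 95% interval 22.6% to 24.0%). In the 9 other libraries with over 1000 counts it took 0.961% to 6.91% (median 2.85%). That mouse had the lowest effective number of heavy V segments, 14.4, and also the highest Ighg2c level. Its kappa V segments were not narrowed in step, at an effective number of 31.9.

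Other mice held other leading segments. Mouse 2 of ICN deltaPOZ Vav p53 wt gave 537 of 3390 heavy V counts to Ighv14-4, which was 15.8% (14.6% to 17.1%), against at most 1.60% in any of the 9 others. Mouse 1 of ICN Miz1 wt p53 wt gave 1191 of 8284 to Ighv14-2, which was 14.4% (13.6% to 15.2%), against at most 3.33% in any of the 9 others. They were prominent in different mice. Mouse 1 of ICN deltaPOZ Vav p53 ko gave 8.12% to Ighv9-1, against a median of 0.364% in the 9 others.

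Kappa V segments showed the same kind of pattern. Igkv3-2 took 657 of 3285 kappa V counts in mouse 1 of ICN deltaPOZ Lck p53 ko, which was 20.0% (18.6% to 21.4%), against a median of 3.44% and at most 7.92% in the 9 others. The 5 leading kappa segments of that mouse, with Igkv8-24 at 9.04% as the second, took 47.3% of its kappa V counts. Its effective number of kappa V segments, 15.1, was the lowest of the 12, whereas that of its heavy V segments was 35.5. Counts of separate segments do not show which heavy and light chain belong to the same cell.

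A segment was listed as prominent by a rule chosen after the shares were seen. It had to take at least 5% of V counts in 1 library and at least 3 times the median of the 9 others. The rule listed 9 heavy V segments in 8 of the 10 libraries and 9 kappa V segments in 6 of the 10. Such a share measures RNA, not cells, and no joined V, D and J sequence was read. Whether a prominent share came from 1 clone was not tested. Ighv8-12 (9.50% in mouse 1 of ICN deltaPOZ Lck p53 wt), Ighv10-1 (7.26% in mouse 1 of ICN deltaPOZ Vav p53 wt), Igkv5-39 (10.9% in that same mouse) and Igkv9-120 (9.49% in mouse 2 of ICN deltaPOZ Vav p53 wt) were among them. Ighv1-82 led the heavy V segments in 2 of the 10 libraries, and Igkv3-2 and Igkv3-4 each led the kappa V segments in 3.

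Some segments were common in most libraries instead. Igkv3-4 was among the 5 leading kappa segments in 8 of the 10 libraries and led in 3, at 3.27% to 14.1% (median 7.16%). Igkv10-96 and Ighv9-3 were among the 5 leaders of their chain in 6 of the 10, and Ighv1-26 in 5. By mean level over all 16 libraries the 5 highest heavy V segments were Ighv1-82, Ighv9-3, Ighv14-2, Ighv3-6 and Ighv1-26, and the 5 highest kappa V segments were Igkv3-4, Igkv3-2, Igkv5-39, Igkv10-96 and Igkv1-135. In 1 of the no ICN libraries, mouse 2 of deltaPOZ Vav p53 ko, Ighv7-1 led with 14.4% of 418 heavy V counts and Igkv10-96 with 15.3% of 321 kappa V counts.

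By family, Ighv1, the largest heavy V family with 49 members here, held 45.9% to 64.7% of heavy V counts in the 10 libraries (median 48.4%). Ighv14, with 4 members, held 3.02% to 20.6%, the most in the mouse led by Ighv14-4. Igkv3 held 11.0% to 36.7% of kappa V counts (median 19.2%), the most in the mouse led by Igkv3-2, and the medians of Igkv1 and Igkv4 were 12% and 11.4%. The highest shares of Ighv14 and Igkv3 were thus in mice with a prominent member of the family.

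Profiles of V use were also compared between libraries. The share of V counts that 2 libraries have in common, summing the smaller of both shares over segments, was 63.4% to 71.2% in the 5 same-group pairs for heavy V (median 64.4%), against 57.3% to 71.3% in the 40 other pairs (median 65.7%). For kappa V it was 68.5% to 75.7% in same-group pairs (median 68.7%), against 54.1% to 77.1% in the others (median 69.2%). The ranges of same-group and other pairs overlapped, and no test was run on them since pairs share libraries.

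**Figure D4:**
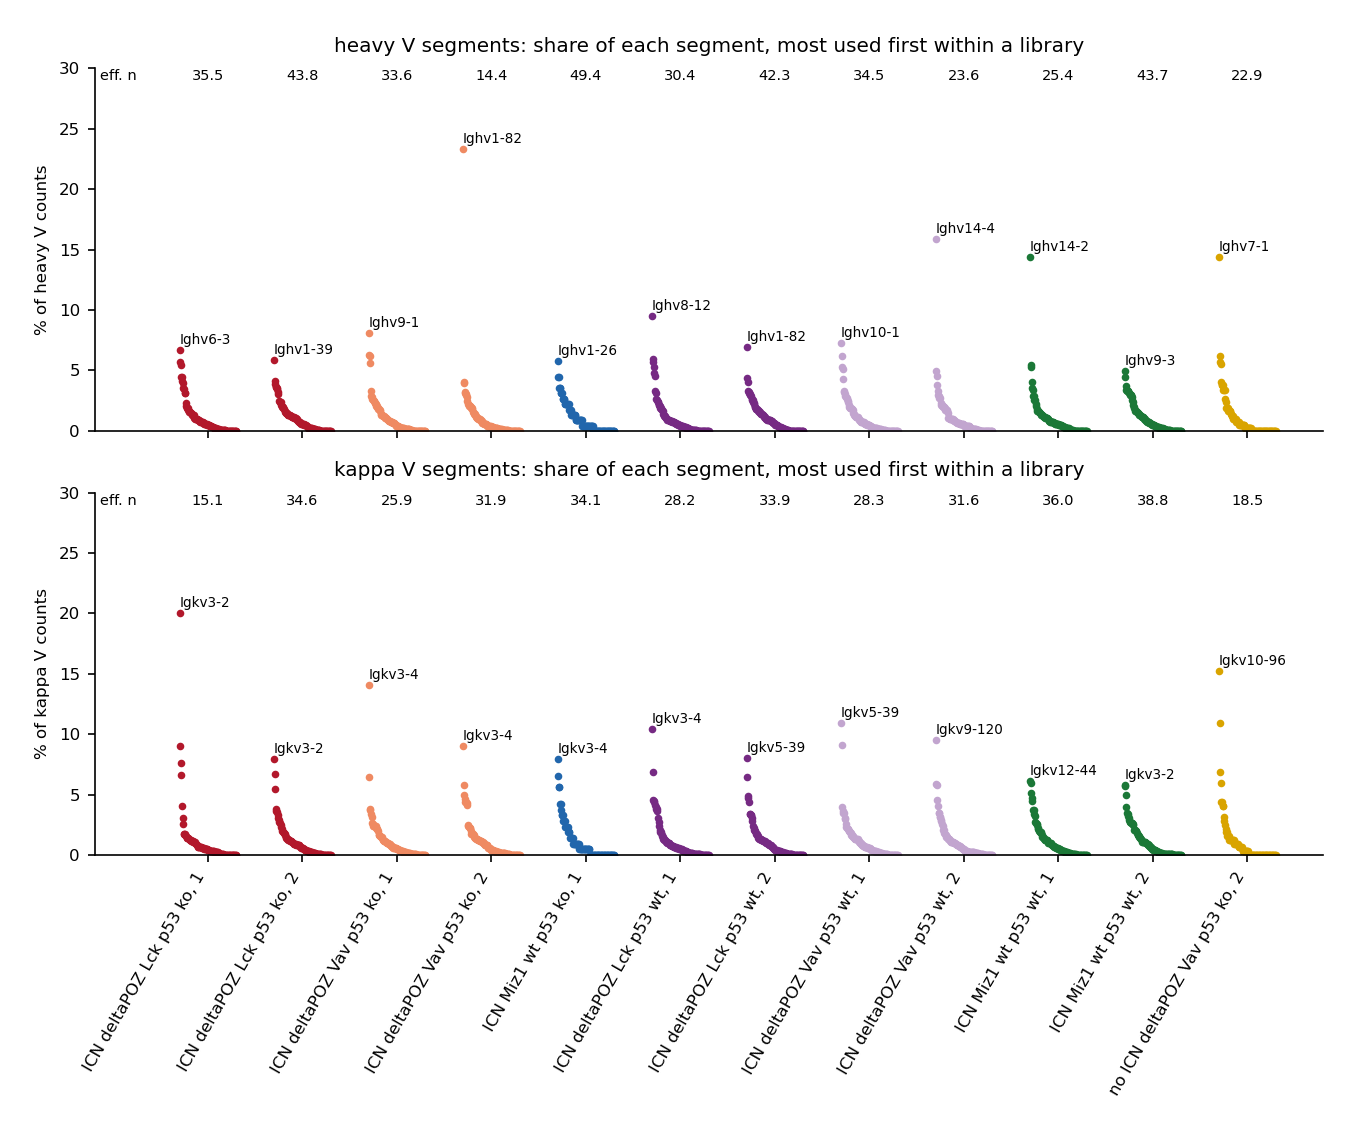
Share of each V segment among all heavy V counts and among all kappa V counts in the 12 libraries with at least 200 V counts per chain, with the leading segment named and the effective number of segments ("eff. n") at the top. Each point is 1 segment, and the points that stand far above the rest include Ighv1-82 at 23.3% and Igkv3-2 at 20.0%, each in 1 mouse.

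ICN against no ICN, both p53 ko, was the comparison in which immunoglobulin genes rose. It set the ICN deltaPOZ Vav and ICN Miz1 wt groups (4 libraries) against the no ICN deltaPOZ Vav and Miz1 wt groups (4 libraries). Of the 240 members, 165 passed the filter on low counts (156 V and 9 C), and the 75 others, all D and J segments among them, were not tested. The filter asks for counts in few libraries, so that a segment can enter through the group in which it is high, and counts over the 165 describe the members without supporting a difference. By edgeR's quasi-likelihood test with Benjamini-Hochberg adjustment over all 17470 genes tested, 72 of the 165 rose and 0 fell, where 12.9% of all genes rose and 11.1% fell. At an unadjusted p under 0.05, 111 were higher, against 18.7% of all genes, and 30 had higher libraries with ICN that did not overlap those without, where 12.1% of all genes did so (9.56% lower). The risers were 4 of 7 heavy constant genes, 31 of 77 heavy V, 32 of 76 kappa V, 3 of 3 lambda V, Igkc and Iglc2.

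The lambda constant gene Iglc2 had the lowest adjusted p of the members. It averaged 18.9 CPM with ICN and 0.105 CPM without it, a log2 fold change of 6.15 ± 0.74 (SE, adjusted p = 0.000303), and its libraries did not overlap. Igkc averaged 78.2 CPM with ICN and 2.26 CPM without it, a log2 fold change of 3.91 ± 0.82 (adjusted p = 0.00627), although 5.99 CPM in 1 no ICN library exceeded 3.55 CPM in 1 ICN library. Igha rose by 3.11 ± 0.82 (adjusted p = 0.0195). Ighg3 (adjusted p = 0.00339), Ighe (adjusted p = 0.0165) and Ighg1 (adjusted p = 0.0186) rose against a group in which they had 0 counts, so that no fold is given.

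The constant genes that did not pass were Ighg2b with a log2 fold change of 3.20 ± 1.09 (adjusted p = 0.0527), Ighm with 1.25 ± 0.45 (adjusted p = 0.0635) and Ighg2c with 2.87 ± 1.07 (adjusted p = 0.0727). All are edgeR quasi-likelihood tests with Benjamini-Hochberg adjustment. Some passed without 1 mouse: Ighm (adjusted p = 0.0386 without mouse 2 of no ICN Miz1 wt), Ighg2b (0.0354 without mouse 1 of no ICN Miz1 wt and 0.0431 without mouse 2 of ICN Miz1 wt) and Ighg2c (0.0360 without mouse 1 of ICN deltaPOZ Vav). Ighm had the smallest log2 fold change of the 9 constant genes. The value of Ighg2c averages unlike changes in the Miz1 genotypes, fitted apart after the data were seen. It was 7.75 between the deltaPOZ Vav groups (adjusted p = 0.0202, edgeR) and -2.01 between the Miz1 wt groups (adjusted p = 0.413, edgeR). Ighg2b had 5.94 and 0.458 in the same contrasts, and the other constant genes had positive values in both. The difference of these contrasts passed for 0 members, as given below. Igha passed only with certain mice: its adjusted p was 0.0603 or 0.0660 without 1 of the no ICN Miz1 wt mice (mouse 1 or 2), 0.0786 without mouse 1 of ICN Miz1 wt and 0.0623 without mouse 2 of ICN deltaPOZ Vav. Ighe had an adjusted p of 1 without mouse 1 of ICN Miz1 wt, the mouse with 156 Ighe counts, of 0.0541 without mouse 2 of no ICN Miz1 wt, and of 0.0504 and 0.0594 without mouse 1 and mouse 2 of no ICN deltaPOZ Vav. Ighg1 had 0.214 without mouse 1 of ICN Miz1 wt, 0.0528 without mouse 2 of ICN deltaPOZ Vav, 0.0551 and 0.0618 without mouse 1 and mouse 2 of no ICN Miz1 wt, and 0.0712 without mouse 2 of no ICN deltaPOZ Vav.

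Among V segments, Ighv10-1 averaged 2.11 CPM with ICN and 0.0313 CPM without it, a log2 fold change of 4.71 ± 0.84 (adjusted p = 0.00279). Igkv1-135 averaged 3.03 CPM with ICN and 0.0411 CPM without it, a log2 fold change of 4.89 ± 0.96 (adjusted p = 0.00468). Ighv1-22 averaged 1.72 CPM with ICN and 0.0381 CPM without it, a log2 fold change of 4.02 ± 0.82 (adjusted p = 0.00571). The others among the 12 lowest adjusted p were Iglv2, Ighv6-3, Ighv5-16, Ighv7-3, Ighv1-80, Ighv1-19 and Igkv1-88, each with a group at 0. Iglv2 averaged 5.96 CPM with ICN and 0.0288 CPM without it, and Ighv6-3 1.97 CPM with ICN and 0.0217 CPM without it. Adjusted p values are from edgeR's quasi-likelihood test. Ighv1-19 had an adjusted p of 1 without mouse 1 of ICN Miz1 wt.

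The fitted median log2 fold change was 4.10 over the 165 members, against -0.02 over all genes. Since 119 of the 165 had at least 1 group with no count, the ratio of mean levels was also taken with a floor of 3 counts over the ICN or no ICN libraries, and its median was 4.63 on the log2 scale. The count of 72 rested on single mice. It was 29 without mouse 1 of ICN Miz1 wt, 37 without mouse 2 of ICN deltaPOZ Vav and 39 without mouse 2 of no ICN Miz1 wt, and 29 to 75 over all 16 left-out libraries.

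Within Miz1 genotypes, 62 of the 165 rose between the deltaPOZ Vav groups, where 4.99% of all genes rose, and 4 rose between the Miz1 wt groups, where 6.7% of all genes rose. These contrasts were added after the data were seen. The 4 were Iglc2, Iglv2, Ighv6-3 and Ighv5-16, and Iglc2 had a log2 fold change of 4.43 (adjusted p = 0.0249, edgeR). The difference of the 2 contrasts passed for 0 of 165 members (lowest adjusted p 0.569), with 18 at an unadjusted p under 0.05, each with the larger difference in the Vav groups (2.47% of all genes that way and 4.52% the other way), so that the genotypes were not shown to differ in it.

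Marker genes of other cell types moved with ICN as well. Of the 16 B cell markers 13 rose and 0 fell (median log2 fold change 4.10). Of 9 plasma cell markers, Jchain (4.37), Mzb1 (7.69), Irf4 (4.39) and Prdm1 (2.35) rose and Sdc1 (-1.64) fell, with a summed level of 195 to 411 CPM over all 12 ICN libraries and 167 to 294.5 CPM without it. All 6 erythroid and all 7 neutrophil markers rose. In the 4 ICN libraries compared here, erythroid markers summed to 1656 to 4628 CPM, against 5.35 to 15.98 CPM without ICN. Neutrophil markers summed to 49.6 to 3695 CPM in those 4 libraries, against 0.330 to 1.44 CPM without ICN. Of 8 macrophage markers 4 rose, and 10 T cell markers had 1 riser and 2 that fell. The part of these cells in the immunoglobulin change was not tested.

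A list of genes of recombination, B cell regulation and assembly moved in part. Of its 27 genes tested 9 rose and 0 fell, among them Pax5, a B cell identity factor (log2 fold change 4.89), and Cd79a, a B cell receptor signalling chain (log2 fold change 3.42). The list shares Pax5 and Cd79a with the B cell markers, and Jchain, Mzb1 and Irf4 with the plasma cell markers, so its count is not separate from theirs. Rag1, which cuts DNA in V(D)J recombination in T as in B precursors, stood at 751 to 1309 CPM in the 4 ICN libraries of this comparison, against 1751 to 5814 CPM without ICN, with a log2 fold change of -2.15 ± 1.03 (adjusted p = 0.153). Of 5 germinal centre and class switching markers tested 1 rose and 2 fell (median log2 fold change -1.05), and those that fell were Mef2b (-3.51), a transcription factor of germinal centre B cells, and S1pr2 (-1.05), a sphingosine-1-phosphate receptor. Of 5 pro-B and pre-B markers tested 0 passed, and Vpreb1 and Igll1, parts of the surrogate light chain, had log2 fold changes of -1.38 and 1.58.

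**Figure D5:**
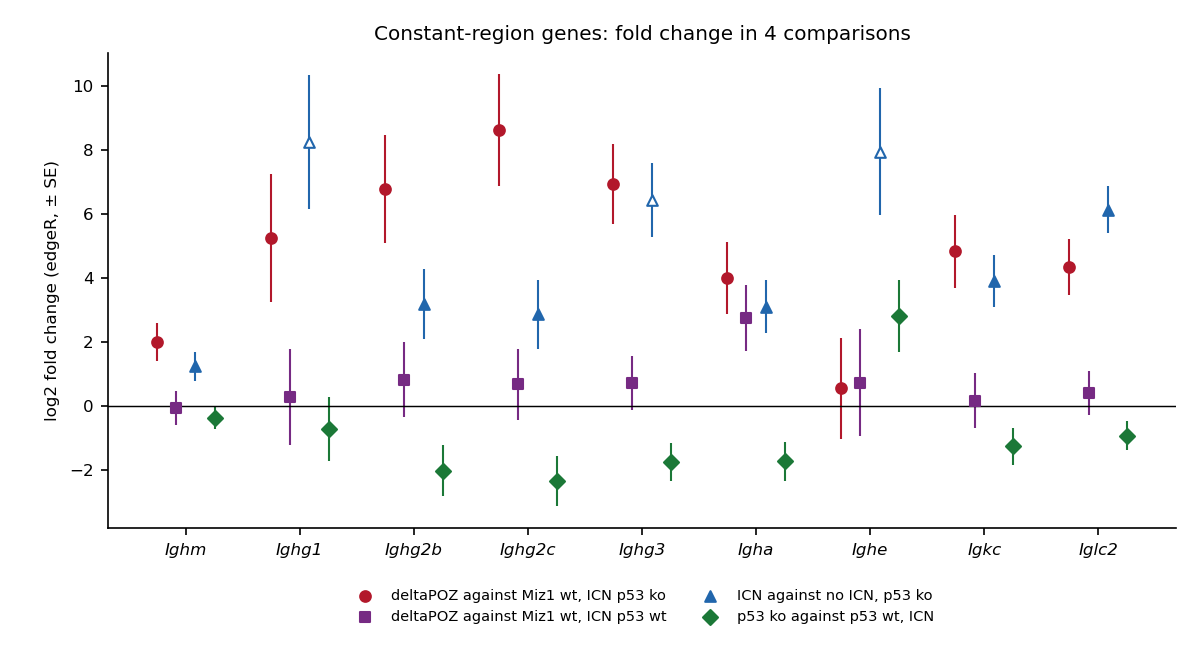
Log2 fold change with its standard error for the 9 constant genes in 4 comparisons, from the edgeR fit over all libraries. Filled points have a count in each group compared, hollow points have a group at 0, and the ICN comparison and deltaPOZ against Miz1 wt in ICN p53 ko lie furthest above 0.

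deltaPOZ against Miz1 wt in ICN p53 ko mice gave the largest immunoglobulin differences of the Miz1 comparisons, and 0 passed the test. It set the 4 ICN deltaPOZ p53 ko libraries against the 2 ICN Miz1 wt p53 ko libraries. By edgeR's quasi-likelihood test 0 of the 165 tested members passed the adjusted threshold of 0.05 (lowest adjusted p 0.653), where 0 of all genes rose (0%) and 0.00572% fell. At an unadjusted p under 0.05, 144 were higher and 0 lower, where 1.59% of all genes were higher and 2.19% lower. DESeq2 gave 88 members as higher, where it gave 0.65% of all genes as higher and 0.1% as lower. The libraries of the groups did not overlap, with deltaPOZ higher, for 154 of the 165, where 4.4% of all genes were so placed and 4.5% the other way.

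Ighg2c averaged 142 CPM in deltaPOZ and 0.331 CPM in Miz1 wt mice, a log2 fold change of 8.62 ± 1.75. Igkc averaged 141 CPM in deltaPOZ and 4.88 CPM in Miz1 wt mice (4.85 ± 1.14), and Iglc2 25.5 CPM in deltaPOZ and 1.12 CPM in Miz1 wt mice (4.36 ± 0.87). Ighm averaged 787 CPM in deltaPOZ and 195 CPM in Miz1 wt mice, which at 2.01 ± 0.60 was the smallest log2 fold change after that of Ighe. Ighe averaged 3.22 CPM in deltaPOZ and 2.18 CPM in Miz1 wt mice (0.56 ± 1.58), its libraries overlapped, and its sign turned to -0.42 without mouse 2 of ICN Miz1 wt and to -0.14 without mouse 2 of ICN deltaPOZ Vav.

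The median log2 fold change over the 165 members was 5.11, against -0.01 over all genes, and 4.36 when the ratio of means was taken with a floor of 3 counts, since 29 members had 0 counts in both Miz1 wt mice. The B cell markers had a median of 2.79, 0 of 16 passed by edgeR, and they summed to 193 to 322 CPM in deltaPOZ and 68.6 and 155.6 CPM in Miz1 wt mice. Plasma cell markers summed to 195 to 391 CPM in deltaPOZ and 207 and 247 CPM in Miz1 wt mice. The part of B cell number in this comparison was not tested.

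The same comparison in ICN p53 wt mice showed no such offset. By edgeR's quasi-likelihood test 0 of 165 passed (0% of all genes rose and 0% fell), and with no adjustment of p 3 were higher and 1 lower under 0.05 (0.59% and 1.28% of all genes). DESeq2 gave 0 members (0% of all genes higher, 0.0885% lower). Libraries did not overlap, with deltaPOZ higher, for 7 members and, with deltaPOZ lower, for 1 member (5.45% and 5.95% of all genes). The median log2 fold change was 0.17, and Igkc had 0.18 ± 0.87. Igha averaged 54.3 CPM in deltaPOZ and 7.72 CPM in Miz1 wt mice, without overlap, at a log2 fold change of 2.77 ± 1.03 that did not pass (adjusted p = 1, edgeR). The difference between the deltaPOZ effects with p53 ko and with p53 wt passed for 0 of 165 members (each adjusted p 1, edgeR, with 0% of all genes past the threshold). With no adjustment of p, 113 of the 165 were under 0.05 with the larger effect in p53 ko and 0 with the smaller, where 1.32% and 1.28% of all genes were. After adjustment the p53 states were not shown to differ in it.

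Without ICN, in p53 ko mice, deltaPOZ Vav (2 libraries) was set against Miz1 wt (2 libraries). By edgeR 0 of 165 passed (0% of all genes rose and 0% fell), and with no adjustment of p 22 were higher and 0 lower under 0.05 (4.63% and 3.05% of all genes). DESeq2 gave 2 as higher, Ighv7-1 and Igkv14-111, where 1.17% of all genes were higher and 0.299% lower. Libraries did not overlap, with deltaPOZ higher, for 35 members (12.8% of all genes, and 13.2% the other way). Ighm averaged 282 CPM in deltaPOZ and 101 CPM in Miz1 wt mice (1.48 ± 0.64). Of the 165, 101 had 0 counts in both Miz1 wt mice, which limits what V segments can show here. Averaged over the 3 backgrounds, 0 of 165 passed by edgeR (0% of all genes rose and 0.0172% fell), and with no adjustment of p 81 were higher and 0 lower under 0.05 (2.94% and 1.97% of all genes). DESeq2 gave 41 as higher, where 0.605% of all genes were higher and 0.214% lower. Libraries of all deltaPOZ and all Miz1 wt mice overlapped for every member (0.00572% of all genes were wholly higher and 0.0458% wholly lower).

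p53 ko against p53 wt, among ICN libraries (6 against 6), passed for 0 of 165 members by edgeR, where 0.12% of all genes rose and 0.0744% fell. With no adjustment of p, 46 were lower and 1 was higher under 0.05, which was Ighe (6.83% and 8.65% of all genes). DESeq2 gave 11 as lower and 0 as higher (2.3% and 3.99% of all genes). Ighg2c had a log2 fold change of -2.34 ± 0.78 (adjusted p = 0.190, edgeR), although it averaged 94.9 CPM in p53 ko and 89.5 CPM in p53 wt libraries. The arithmetic mean of the p53 ko libraries is carried by 394 CPM in 1 mouse, and the fit weighs groups on the log scale. By group, Ighg2c averaged 0.331 CPM with p53 ko and 63.5 CPM with p53 wt in Miz1 wt mice. It averaged 75.9 and 92.9 CPM in deltaPOZ Lck mice and 208 and 112 CPM in deltaPOZ Vav mice. Igkc averaged 95.4 CPM in p53 ko and 110 CPM in p53 wt libraries (-1.25 ± 0.59, adjusted p = 0.336, edgeR). With p53 ko it was lower in Miz1 wt mice (4.88 against 100.4 CPM) but higher in deltaPOZ Lck (130 against 103 CPM) and Vav mice (151.5 against 126 CPM). The part of the ICN Miz1 wt p53 ko pair in the 46 lower members was not tested. Libraries overlapped for all 165, where 0.973% of all genes were wholly higher and 1.62% wholly lower.

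Lck against Vav among ICN deltaPOZ libraries (4 against 4) passed for 0 of 165 members by edgeR, where 0% of all genes rose and 0% fell. With no adjustment of p, 2 were lower and 0 higher under 0.05 (1% and 2.15% of all genes). DESeq2 gave 0 (0.0794% of all genes higher, 0.055% lower). Libraries did not overlap for 1 member, with Lck lower (1.29% of all genes, and 1.6% the other way). The median log2 fold change was -0.28. Igkc averaged 116 CPM in Lck and 139 CPM in Vav libraries (-0.26 ± 0.71), and Ighm averaged 664 CPM in Lck and 746 CPM in Vav libraries (-0.17 ± 0.44). With 2 mice per group and ranges such as 22.6 to 394 CPM for Ighg2c in a single group, differences smaller than this spread could not be seen.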

How the data were processed

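The deposited values are raw counts per gene, 1 table per library, of 41214 genes. TopHat2 2.0.10, SAMtools, HTSeq and DESeq are named, per the submitters' processing notes, and mm10 and GRCm38 as builds, which name the same assembly. RNA was total RNA in TruSeq Stranded mRNA libraries, per the labels' protocols. Of the annotation release and the counter's strand setting, neither is given in the sources used here. The totals that name no gene were left out: alignments not unique (45.8% to 63.7%), reads with no feature (14.2% to 21.5%) and ambiguous reads (0.138% to 0.331%), so that genes kept 20.6% to 39.6%.

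Counts as deposited were tested with edgeR 4.0.16 (glmQLFit and glmQLFTest, R 4.3.3) over 8 groups in 1 fit, with TMM scaling, filterByExpr and Benjamini-Hochberg adjustment over 17470 genes, and an adjusted p under 0.05 as the threshold. Common dispersion was estimated from 8 residual degrees of freedom. DESeq2 1.42.0, size factors in place of TMM, no filter and each library left out were alternatives. Biotypes, coordinates, exon lengths and sequences came from GENCODE M21, and 40340 genes matched it. No exon of a member overlaps another gene counted. The fit was also run on simulated counts for ICN against no ICN, with each gene drawn independently. How it behaves for genes that move together between mice, as immunoglobulin genes did here, was not tested. Members and lists were chosen with earlier results of these data known. The text names all constant genes, the 5 V segments highest in mean CPM per chain and the leading V segment of each library with 200 or more V counts. It also names up to 12 members per comparison by p, and describes segments listed as prominent. Replicates are separate mice, and nothing says that they share a litter or a day.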

Additional observations from a re-analysis of the deposited data

Results flagged for a closer look

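Ighv1-19, a heavy V segment, was flagged because its deltaPOZ and Miz1 wt libraries did not overlap, in opposite directions with p53 ko and p53 wt, in mice given ICN. With p53 ko it had 0.878, 2.26, 1.91 and 5.74 CPM in deltaPOZ mice and 0.168 and 0 CPM in Miz1 wt mice, a fitted log2 fold change of 4.94. With p53 wt it had 1.18, 0.429, 0.802 and 1.18 CPM in deltaPOZ mice and 1.90 and 1.23 CPM in Miz1 wt mice, a log2 fold change of -0.81. Every deltaPOZ library was above its Miz1 wt libraries in the first case and below in the second, which is what the flag asked for. With p53 ko, 154 of the 165 tested members were placed so (4.4% of all genes). With p53 wt, Ighv1-19 was the only 1 of the 165 with deltaPOZ lower (5.95% of all genes), at 1.18 against 1.23 CPM where the groups came closest. The interaction term, fitted over all genes with edgeR, did not pass (adjusted p = 1), so opposite effects were not shown.

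A set of 10 immunoglobulin V pseudogenes in the tables, outside the members, held 14 counts in all libraries together. The highest summed count in a library was 6, above the limit of 3 counts that a count of 0 allows.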

How the results depend on the processing

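The count of members past the threshold in ICN against no ICN was 72 by edgeR, 115 by DESeq2, 123 with no filter on low counts, and 29 to 75 with each library left out, and no member fell under any of these. It was 4 within the Miz1 wt groups alone. The counts of 0 by edgeR stayed 0 with size factors in place of TMM and with each library left out (0 to 0 in the 6 other comparisons). With DESeq2 they became 41 for deltaPOZ over the mean of 3 backgrounds, 88 in ICN p53 ko, 2 without ICN and 11 for p53 ko, and with no filter 81, 139, 24 and 64, with 3 for deltaPOZ in ICN p53 wt and 3 for Lck against Vav; the cause was not tested. Of 361 recomputed values of the 19 members named in the ICN comparison, 337 kept their direction and side of the threshold, 14 lost the call, 10 gained it and 0 reversed. The reversed values were Ighe, at -0.42 and -0.14 in a left-out range up to 10.36 (deltaPOZ in ICN p53 ko, without mouse 2 of ICN Miz1 wt and without mouse 2 of ICN deltaPOZ Vav), Ighe at -0.44 in a range up to 4.05 (p53 ko, without mouse 1 of ICN Miz1 wt p53 ko) and Ighg1 at 0.75 in a range down to -2.17 (p53 ko, without mouse 1 of ICN Miz1 wt p53 wt). The median kappa share was 86.4% by constant genes and 82.2% by V counts, and the median effective number of V segments was 34.1 heavy and 31.7 kappa by inverse Simpson and 47.8 and 45.6 by the exponential of the Shannon entropy. Where a library was left out, the lone mouse of its group was assumed to vary like the other groups. No paired analysis was possible because the labels give no replicate numbers. Low V counts in no ICN libraries, 25 to 418 per chain, limit their shares.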
